A study of Mus musculus with 20 samples.

Results

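Livers of Fancd2 mutant male mice given oxymetholone were compared with livers of untreated Fancd2 mutants, across all genes counted. Of the 20 samples labelled in the series, 18 had counts analysed here, and the comparison used 8 of them by their labels. The tested livers were 5 libraries of genotype d2-/- with treatment oxm, numbered replicates 1 to 5. Set against them were 3 libraries of the same genotype without treatment, numbered replicates 2 to 4, while untreated replicate 1 was not analysed here. The other groups, used only where named, were 3 mutant libraries given metformin together with oxymetholone (the combination), 3 mutant libraries given metformin, and 4 untreated wild-type libraries. All were male, and the labels give 18 months of treatment for every sample, the untreated ones included. The sources used here do not give the dose, route, age, strain or kind of Fancd2 allele.

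The product of Fancd2 acts in the repair of crosslinks between DNA strands, and people who lack it have Fanconi anaemia, with failure of the marrow. Oxymetholone is a synthetic anabolic androgen given by mouth for marrow failure. Steroid hormones act through nuclear receptors, of which the glucocorticoid and progesterone receptors bind DNA at inverted repeats. In mouse liver, androgens also set the male pattern of growth hormone release, and through it the sex bias of cytochrome P450 and urinary protein genes.

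Total counts were 21.8 to 32.7 M per oxymetholone library and 21.2 to 29.8 M per untreated library. Levels below are CPM, read counts divided by the TMM-scaled library size and put on the usual CPM scale, and differences are edgeR log2 differences of oxymetholone minus untreated mutants ± SE. The SE was derived from the test, as the size of the log2 difference divided by the square root of its F statistic. Adjusted p is the Benjamini-Hochberg value of the quasi-likelihood test in edgeR, over 16115 genes, and a gene was called when it was under 0.05. Counts of Fancd2 were not analysed here, and the genotype rests on the labels. The 12 hepatocyte markers summed to 57800 to 76200 CPM with oxymetholone and 55700 to 84300 CPM in untreated mutants, and none of the 12 was at 0. Mitochondrial genes held 8.19% of counts in oxymetholone replicate 3, 1.77 to 2.55% in the other oxymetholone libraries and 2.04 to 2.60% in untreated libraries. Nothing in the labels says that the libraries came from separate animals, so the p-values measure the spread between these samples. In bulk liver RNA, fewer cells of a type and less RNA per cell cannot be told apart.

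The promoters of called genes are shown because 2 of the genes lower with oxymetholone, Tmem62 and Ubr1, are neighbours, and because steroid hormone receptors bind a known DNA element. Each window runs from 250 bases before to 50 bases after a RefSeq transcript start (build GRCm38.p6). Capitals mark AGAACA or its reverse complement, the 6-base arm of the element that the glucocorticoid receptor binds, searched on both strands. The full element is 2 such arms facing each other across 3 bases. Of the 7 called genes 4 had a window in the table, Paqr8 with 2 start sites, and Lncbate1, Rab38 and Mcmdc2 are named only.
Paqr8, window 1, chr1:20890298-20890597 (plus strand): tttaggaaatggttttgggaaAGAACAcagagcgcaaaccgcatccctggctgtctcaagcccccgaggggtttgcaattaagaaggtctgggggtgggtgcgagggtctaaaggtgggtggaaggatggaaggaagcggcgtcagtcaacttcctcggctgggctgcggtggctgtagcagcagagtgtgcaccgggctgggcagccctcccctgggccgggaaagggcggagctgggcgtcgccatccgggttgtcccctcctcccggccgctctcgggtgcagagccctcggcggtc
Paqr8, window 2, chr1:20917590-20917889 (plus strand): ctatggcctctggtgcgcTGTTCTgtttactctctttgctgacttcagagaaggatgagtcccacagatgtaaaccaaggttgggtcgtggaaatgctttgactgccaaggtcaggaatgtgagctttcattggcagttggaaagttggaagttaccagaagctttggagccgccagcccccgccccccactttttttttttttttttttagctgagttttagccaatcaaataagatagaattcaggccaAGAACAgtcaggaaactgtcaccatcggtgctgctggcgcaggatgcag
Wif1, chr10:121033754-121034053 (plus strand): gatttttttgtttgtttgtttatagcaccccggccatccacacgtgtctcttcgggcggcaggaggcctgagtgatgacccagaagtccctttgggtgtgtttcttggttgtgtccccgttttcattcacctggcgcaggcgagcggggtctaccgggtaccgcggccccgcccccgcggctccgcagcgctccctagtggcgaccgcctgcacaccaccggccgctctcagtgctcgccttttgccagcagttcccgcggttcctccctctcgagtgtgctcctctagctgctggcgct
Tmem62, chr2:120976812-120977111 (plus strand): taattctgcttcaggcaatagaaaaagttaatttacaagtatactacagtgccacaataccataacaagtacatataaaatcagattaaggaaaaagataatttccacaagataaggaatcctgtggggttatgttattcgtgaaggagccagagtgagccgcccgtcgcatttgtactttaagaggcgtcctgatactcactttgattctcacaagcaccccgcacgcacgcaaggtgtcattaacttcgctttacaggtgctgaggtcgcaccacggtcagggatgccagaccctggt
Ubr1, chr2:120970666-120970965 (minus strand): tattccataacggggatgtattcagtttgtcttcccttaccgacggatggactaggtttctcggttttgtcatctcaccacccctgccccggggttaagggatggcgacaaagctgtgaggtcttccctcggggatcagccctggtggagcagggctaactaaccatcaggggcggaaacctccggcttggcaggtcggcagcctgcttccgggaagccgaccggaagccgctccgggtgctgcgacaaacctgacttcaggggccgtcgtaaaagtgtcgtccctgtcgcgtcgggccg

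No window of these 4 genes held the full element, which 3 of 32851 promoter windows held (0.00913%). The arm was found once in Paqr8 window 1 and at 2 places in window 2, and 19% of all windows held it. A match is a description of letters and says nothing of binding. The Ubr1 and Tmem62 windows lie head to head on opposite strands, 5846 bases apart.

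EdgeR called 7 of 16115 genes (0.0434%), 4 that rose with oxymetholone (0.0248%) and 3 that fell (0.0186%). All 7 had every oxymetholone library on 1 side of every untreated library, a separation that 3.46% of all genes showed (1.87% higher and 1.59% lower). Nothing is read from this, since the 7 were called from the same libraries. An unadjusted p under 0.05 was found for 773 genes (4.8%), about the share that this threshold passes when no gene differs. The count of called genes was 4 without untreated replicate 4 and 11 without metformin replicate 3, a library that enters only the shared estimate of spread.

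Paqr8, the membrane progestin receptor that answers to progestins at the cell surface, had 17.7, 26.9, 13.4, 28.9 and 27.0 CPM in oxymetholone replicates 1 to 5, against 1.24, 1.80 and 1.25 CPM in untreated replicates 2 to 4. The lowest oxymetholone library lay far above the highest untreated library. The means were 22.8 ± 6.81 CPM (SD, n = 5) and 1.43 ± 0.323 CPM (SD, n = 3), a 15.9-fold ratio (log2 difference 4.0 ± 0.39, edgeR adjusted p = 0.000169). Untreated wild-type livers had 1.25 to 1.89 CPM. Among the other 7 measured genes of the progestin and adiponectin receptor family and the membrane-associated progesterone receptor components, none was called. Closest was Paqr7, another membrane progestin receptor, with 23.6, 43.6, 32.6, 24.3 and 57.6 CPM with oxymetholone, against 25.2, 20.7 and 22.7 CPM in untreated mutants (0.67 ± 0.36, edgeR adjusted p = 0.877). The abundant component Pgrmc1 had −0.13 ± 0.42.

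Wif1, a secreted protein that binds Wnt ligands and keeps them from their receptors, had 41.7, 44.0, 18.0, 16.3 and 37.6 CPM with oxymetholone, against 0.213, 1.04 and 0.88 CPM in untreated mutants. Oxymetholone replicates 3 and 4 were the lower of the treated group and still lay above every untreated library. The means were 31.5 ± 13.3 CPM and 0.711 ± 0.438 CPM (SD, n = 5 and 3), a 44.3-fold ratio (log2 difference 5.49 ± 0.60, edgeR adjusted p = 0.00033). Wild-type livers had 0.752 to 1.73 CPM.

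The long noncoding RNA gene Lncbate1, studied in mouse brown fat, had 23.0, 25.7, 8.14, 11.6 and 11.5 CPM with oxymetholone, against 0.142, 0.109 and 0.44 CPM in untreated mutants. The untreated values rest on 18 counts over 3 libraries, so the ratio is imprecise. It was called with a log2 difference of 6.04 ± 0.78 (edgeR adjusted p = 0.00271). Rab38, a small GTPase that routes cargo to melanosomes and other lysosome-related organelles, had 16.8, 17.4, 12.1, 13.2 and 13.8 CPM with oxymetholone, against 3.77, 2.30 and 2.68 CPM in untreated mutants. Its groups were tight and did not overlap. The ratio was 5.02-fold (log2 difference 2.32 ± 0.40, edgeR adjusted p = 0.0443), and the call was lost when any 1 of the 8 libraries was left out (0.0517 to 0.355).

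Tmem62, which encodes a little studied membrane protein, had 3.72, 2.93, 4.52, 4.38 and 2.14 CPM with oxymetholone, against 24.3, 20.6 and 15.8 CPM in untreated mutants. Every treated library was far below every untreated one (log2 difference −2.52 ± 0.26, edgeR adjusted p = 0.000169). Ubr1, a ubiquitin ligase that marks proteins for breakdown by their first residue, had 5.45, 5.23, 4.57, 3.25 and 2.60 CPM with oxymetholone, against 12.2, 17.0 and 18.6 CPM in untreated mutants. The groups did not overlap (−1.92 ± 0.26, edgeR adjusted p = 0.00407), and the call was lost without untreated replicate 4 (0.0519). Wild-type livers had 14.0 to 17.4 CPM of Tmem62 and 14.3 to 17.4 CPM of Ubr1.

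The next measured genes outside this pair were not called. Ttbk2, a tau tubulin kinase beyond Ubr1, had a log2 difference of −0.02 ± 0.27 and Ccndbp1, a cyclin D binding protein beyond Tmem62, had 0.05 ± 0.15. Ccndbp1 had 16.4, 18.2, 14.1, 18.7 and 20.4 CPM with oxymetholone, against 17.5, 16.6 and 16.8 CPM in untreated mutants.

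Mcmdc2, a gene of meiotic recombination, was at 0 in oxymetholone replicates 1, 3, 4 and 5 and had 0.0371 CPM in replicate 2, against 0.604, 1.31 and 1.17 CPM in untreated mutants. That is 1 count in the 5 treated libraries and 73 counts in the 3 untreated ones, a ratio of 0.00751 with a 95% counting interval of 0.000188 to 0.0432. It was called (edgeR adjusted p = 0.0278), and leaving out 1 of the 8 libraries gave adjusted p of 0.0408 to 0.146, under the threshold only without untreated replicate 2. The genes nearest it, Sgk3 (−0.38 ± 0.31) and Snhg6 (−0.69 ± 0.49), were not called. Next beyond Snhg6 lie Tcf24, a transcription factor gene, and Ppp1r42, which encodes a regulatory subunit of protein phosphatase 1. Tcf24 had 0.36, 0.185, 0.19, 0.243 and 0.0813 CPM with oxymetholone, against 2.34, 14.4 and 5.32 CPM in untreated mutants (−5.11 ± 1.01, edgeR adjusted p = 0.0994). Ppp1r42 had 0.0801, 0.0371, 0.0476, 0.122 and 0.0542 CPM, against 0.852, 1.64 and 2.60 CPM (−4.56 ± 0.89, edgeR adjusted p = 0.0994). Both separated the groups and missed the threshold. Wild-type livers had 0.0712 to 0.644 CPM of Mcmdc2 (oxymetholone minus wild type, edgeR adjusted p = 0.154). Wild-type replicate 2 had 0.32 CPM of Tcf24 and 0.0712 CPM of Ppp1r42, both within the oxymetholone range. The other wild-type libraries lay above that range for both genes. The lowest metformin values were 0.0991 CPM of Mcmdc2, 0.594 CPM of Tcf24 and 0.132 CPM of Ppp1r42, above the oxymetholone range. The sources used here do not give the strand setting of the counting, so reads of overlapping genes cannot be told apart.

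**Figure D1:**
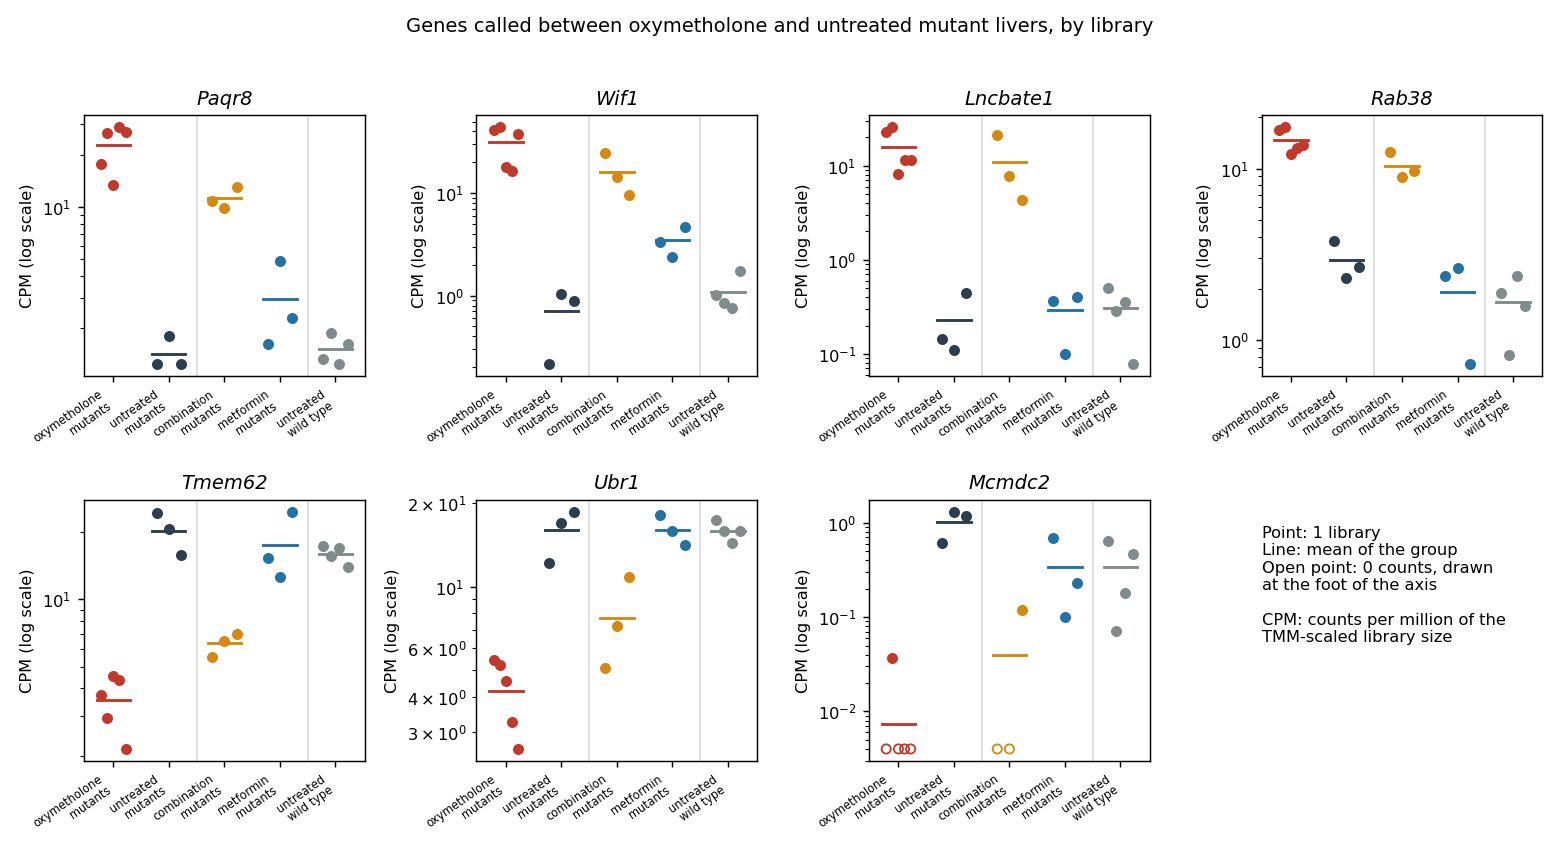
CPM of the 7 called genes on log axes. Each point is 1 library and each line a group mean, with oxymetholone mutants left of untreated mutants, combination left of metformin mutants, and wild type last. In every panel but that of Mcmdc2 the combination points lie apart from the metformin points, on the side of the oxymetholone points.

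**Figure D2:**
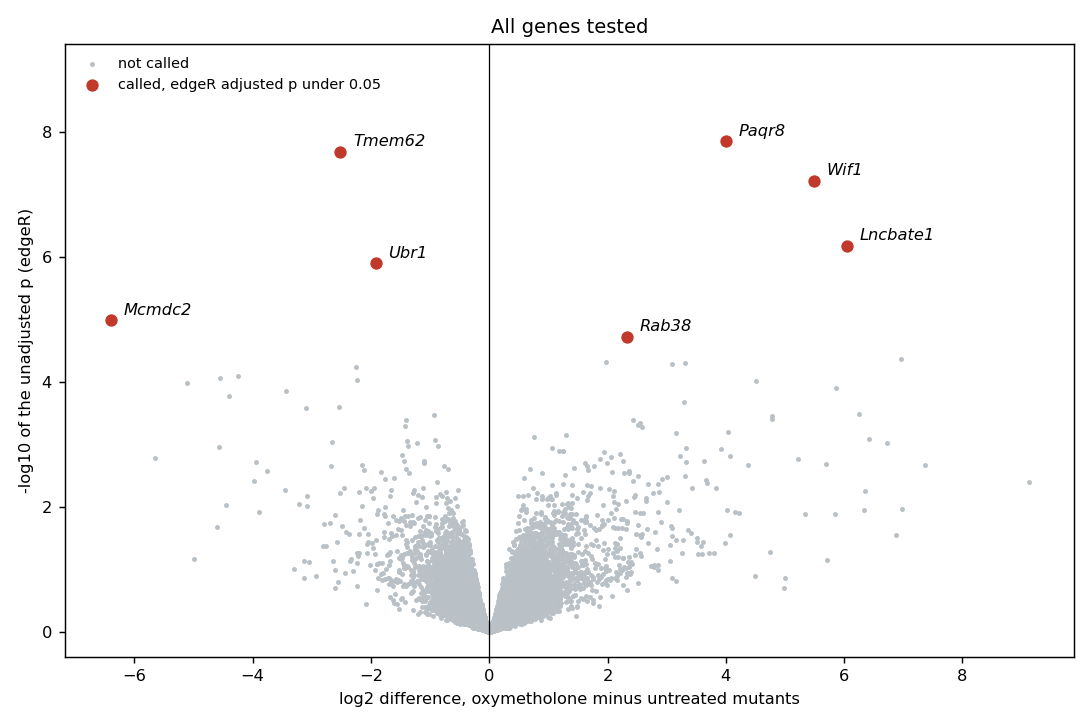
Log2 difference of oxymetholone minus untreated mutants (x axis) and −log10 of the unadjusted edgeR p (y axis) for 16115 genes, each a point. The 7 called genes are red and named.

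The combination and metformin libraries ask whether the same genes differ when oxymetholone is added on top of metformin. They share no library with the 8 above, although the fit shares its estimate of spread. EdgeR called no gene there (0.0%). Of all genes 3.43% had an unadjusted p under 0.05, 1.33% higher and 2.09% lower with the combination. Among the 7 genes, 5 were called by DESeq2 and 3 by limma-voom. All 7 genes had the same direction as with oxymetholone alone and an unadjusted p under 0.05, and 6 of 7 had combination and metformin libraries without overlap, against 4.39% of all genes.

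Paqr8 had 10.9, 9.94 and 13.1 CPM with the combination, against 1.63, 4.92 and 2.29 CPM with metformin (log2 difference 1.93 ± 0.37, edgeR adjusted p = 0.306). Lncbate1 came closest to the threshold there, with 21.1, 7.85 and 4.28 CPM against 0.368, 0.0991 and 0.406 CPM (5.24, edgeR adjusted p = 0.0555). Tmem62 had 5.55, 6.53 and 7.03 CPM with the combination, against 15.4, 12.6 and 24.7 CPM with metformin (−1.46 ± 0.29, edgeR adjusted p = 0.371). Rab38 had 12.5, 8.97 and 9.64 CPM, against 2.37, 2.64 and 0.724 CPM (2.45 ± 0.42, edgeR adjusted p = 0.128). The difference was smaller on the log2 scale than that of oxymetholone alone for 6 of the 7 genes. The interaction of the drugs, the test of that gap, had an unadjusted p under 0.05 for 5 of 7 genes (3.0% of all genes). Its edgeR adjusted p was 0.863 to 0.957, so no gap was called by edgeR. The 7 genes were chosen by their difference in the 8 libraries that the interaction also uses. That choice favours a smaller difference with the combination, so nothing is read from the counts of 6 and 5. The smallest unadjusted p of the interaction was that of Wif1, with 24.4, 14.3 and 9.57 CPM with the combination and 3.32, 2.38 and 4.66 CPM with metformin (interaction −3.28 ± 0.72, edgeR adjusted p = 0.863), and DESeq2 called it.

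The authors' deposited table calls 47 genes for oxymetholone against untreated mutants (0.292% of genes), 25 higher and 22 lower. It holds the 7 genes above and 40 others. Over all 47 genes, 32 had groups without overlap in the deposited counts and 15 overlapped, against 3.46% of all genes without overlap, and nothing is read from this since the table rests on the same libraries. In the combination against metformin, 36 of the 40 others had the same direction, 12 of them with an unadjusted p under 0.05, against 3.43% of all genes in either direction. Groups without overlap in the same direction were found for 8 of the 40, against 4.39% of all genes in either direction. These 12 were 9 of the 21 genes higher with oxymetholone and 3 of the 19 lower.

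Several genes of that table carry a large difference that edgeR did not call. Serpine2, an inhibitor of thrombin and other proteases, had 33.1, 22.3, 19.1, 14.6 and 23.2 CPM with oxymetholone, against 1.92, 4.87 and 1.25 CPM in untreated mutants (3.09 ± 0.57, edgeR adjusted p = 0.0756). It had 3.65 to 11.1 CPM in wild type. Scmh1, a Polycomb group gene, had 9.93, 17.7, 21.8, 20.1 and 27.2 CPM, against 5.51, 1.97 and 2.38 CPM (2.55 ± 0.59, edgeR adjusted p = 0.246). The metalloreductase Steap2 had 1.72, 1.11, 1.38, 1.87 and 1.08 CPM, against 6.04, 9.68 and 4.55 CPM (−2.23 ± 0.44, edgeR adjusted p = 0.0994). In each of these 3 genes the treated and untreated libraries did not overlap.

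The p53 target Bbc3, which encodes the death-promoting protein PUMA, had 9.17, 7.05, 11.1, 9.61 and 8.42 CPM with oxymetholone, against 19.1, 17.0 and 13.6 CPM in untreated mutants (−0.87 ± 0.22, edgeR adjusted p = 0.382). The antiproliferative gene Btg1 had 39.4, 41.1, 32.8, 30.1 and 38.3 CPM, against 87.1, 63.7 and 57.0 CPM (−0.93 ± 0.21, edgeR adjusted p = 0.218). Both were tight within groups, with small differences. Over the p53 target list, 20 of 34 genes had a positive difference and the median was 0.10, or −0.06 without untreated replicate 3 and 0.29 without untreated replicate 2. The noncoding gene Panct2 had 1.96, 4.75, 0.714, 0.892 and 3.58 CPM with oxymetholone, and 2 counts in all in the untreated libraries.

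**Figure D3:**
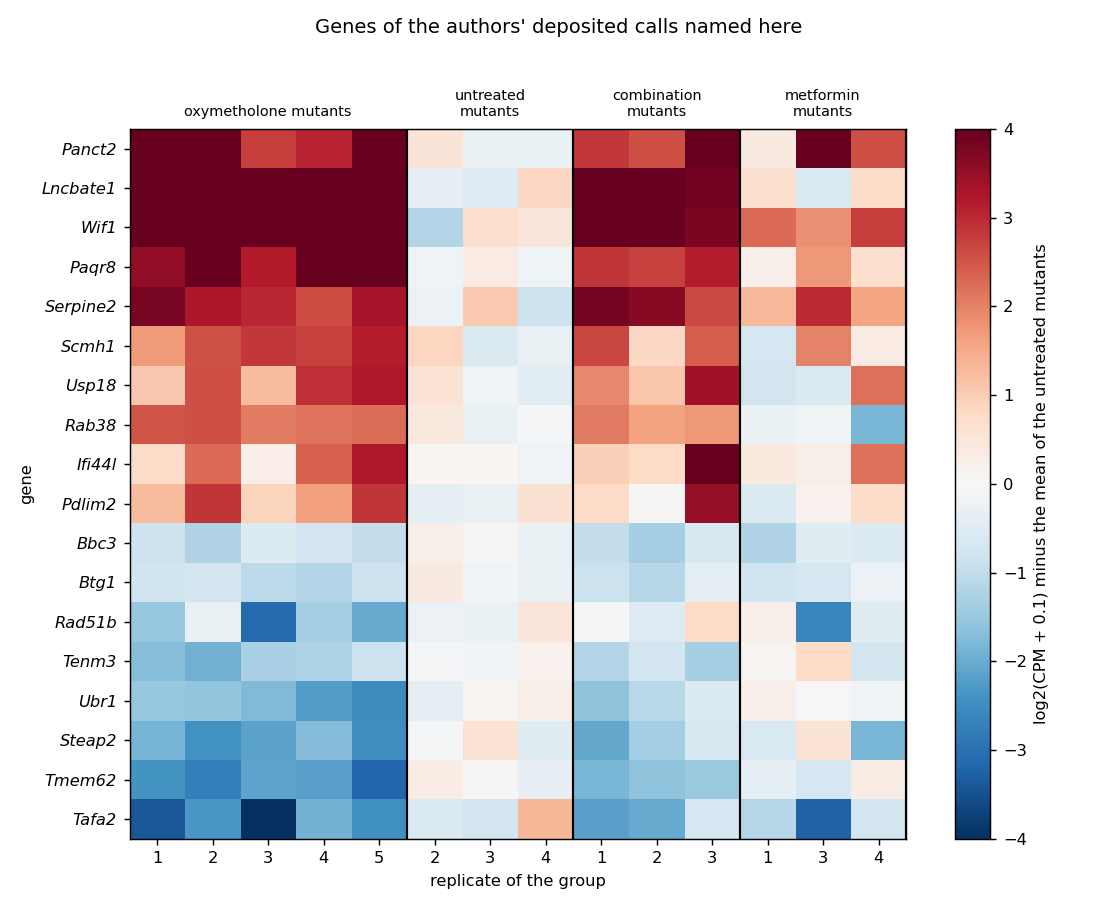
Colour gives the log2 level of each library (CPM with the pseudocount printed on the scale bar) minus the mean of the untreated mutants, for 18 genes of the authors' deposited table, with libraries in columns. Oxymetholone columns lie left of the untreated columns, and in each row all 5 are on 1 side of all 3, as the choice of these genes fixed.

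Outside that table, the genes with the smallest p-values included Tcf24 and Ppp1r42, described above, and the transporter and adhesion genes that follow. Slco4c1, an organic anion transporter that carries steroid conjugates and thyroid hormone, had 11.5, 24.3, 1.86, 4.91 and 18.6 CPM with oxymetholone, against 0.107, 0.0547 and 0.11 CPM in untreated mutants (6.96 ± 1.27, edgeR adjusted p = 0.0756). The untreated values are 7 counts in all, and the treated libraries spread from 1.86 to 24.3 CPM without reaching them. The phosphate transporter Slc20a1 had 14.5, 34.4, 27.5, 18.6 and 53.9 CPM, against 8.92, 6.02 and 7.92 CPM (1.97 ± 0.36, edgeR adjusted p = 0.0756). The desmosomal cadherin Dsg1c had 2.32, 1.48, 3.0, 1.38 and 2.87 CPM, against 17.3, 4.81 and 9.65 CPM (−2.26 ± 0.42, edgeR adjusted p = 0.0796). Slc22a26, an organic anion transporter gene, had 0.0401, 0.222, 0.143, 1.05 and 0.569 CPM, against 5.22, 4.37 and 14.0 CPM (−4.25 ± 0.82, edgeR adjusted p = 0.0993). In the combination against metformin its log2 difference was 1.86, the opposite sign, with an unadjusted edgeR p of 0.061.

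Target genes of steroid hormones come next, as lists of genes described by counts. Nr3c1, the glucocorticoid receptor gene, had a log2 difference of −0.11 ± 0.21 and was not called.

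Of 27 known target genes of steroid hormones, glucocorticoid targets among them, 19 had a positive difference (median 0.41), against 52.9% of all genes (median 0.03). None was called, and 7 had an unadjusted p under 0.05, all with a positive difference, against 2.77% of all genes in that direction. The list median was 0.27 without untreated replicate 3. Fkbp5, a chaperone of steroid receptors and a standard readout of their activity, had 24.7, 11.5, 34.5, 96 and 79.1 CPM with oxymetholone, against 13.6, 4.65 and 8.84 CPM in untreated mutants (2.44 ± 0.80, edgeR adjusted p = 0.727). Replicate 2 was within the untreated range and replicates 4 and 5 stood highest. Tat, a tyrosine aminotransferase that glucocorticoids induce, followed the same order in part, with 628, 207, 907, 1390 and 1060 CPM, against 393, 417 and 286 CPM (1.2 ± 0.57).

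Sex-biased liver genes were uneven. Of 23 male-biased genes 15 had a positive difference (median 0.39), but the median was −0.18 without oxymetholone replicate 1 and −0.01 without replicate 3. Mup20, a male urinary protein gene, had 5320, 9580, 899, 1120 and 4450 CPM, against 578, 808 and 397 CPM (2.85 ± 0.86, edgeR adjusted p = 0.648), and every treated library was higher. Selenbp2 had 121, 85.7, 468, 16.4 and 71.0 CPM, against 8.49, 13.2 and 5.61 CPM (4.07 ± 1.08, edgeR adjusted p = 0.441). In the combination against metformin Selenbp2 had a log2 difference of −2.63, the opposite sign. Of 28 female-biased genes 14 were positive (median −0.06), and the median was 0.51 without untreated replicate 4 and −0.28 without oxymetholone replicate 4.

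Cyp2a4, a member of the female-biased list, and Cyp2a5 encode steroid and coumarin hydroxylases and are near-identical copies, so reads may be split between them in an unknown way. Cyp2a4 had 281, 967, 257, 122 and 1490 CPM with oxymetholone, against 14.2, 20.8 and 33.2 CPM in untreated mutants (4.78 ± 1.07, edgeR adjusted p = 0.22). Cyp2a5 had 789, 2380, 423, 851 and 5330 CPM, against 70.3, 116 and 285 CPM (3.64 ± 0.99, edgeR adjusted p = 0.461). Replicates 5 and 2 were highest for both, and neither group overlapped the other. The same caution on copies holds for Mup20, Selenbp2, Gsta1 and Gstm3.

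Of the Wnt inhibitors, receptors and feedback genes, 25 of 35 measured had a positive difference (median 0.23), and Wif1 alone was called. The median was 0.13 without untreated replicate 3 and 0.40 without untreated replicate 2. Tsku, a secreted modulator of Wnt and TGF-beta signals, had 26.1, 39.2, 73.8, 113 and 125 CPM with oxymetholone, against 13.0, 10 and 19 CPM in untreated mutants (2.43 ± 0.55, edgeR adjusted p = 0.231). Wild-type livers had 28.2 to 87.7 CPM of Tsku, within the oxymetholone range. Dkk4, a secreted inhibitor of the Wnt co-receptor, had 1.80, 2.08, 0.952, 1.58 and 1.52 CPM, against 0.462, 0.109 and 0.44 CPM (2.18 ± 1.1). Lgr4, which potentiates Wnt signals, had 67.5, 48.6, 47.2, 66.5 and 34 CPM, against 74.4, 83.9 and 74.9 CPM (−0.56 ± 0.27).

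Genes that Wnt maintains around the central vein had a positive difference in 14 of 24 (median 0.18, none called, and −0.13 without oxymetholone replicate 4). Glul, the glutamine synthetase of those cells, had 549, 548, 753, 906 and 956 CPM, against 270, 403 and 399 CPM (1.05 ± 0.32, edgeR adjusted p = 0.648). Wild-type livers had 496 to 996 CPM of Glul. Periportal genes, those of the opposite zone, had 12 of 22 positive (median 0.15, 0 called, and −0.06 without oxymetholone replicate 3). Axis genes of growth hormone and IGF had 8 of 16 positive (median 0.06, and −0.19 without oxymetholone replicate 3), and Igf1 itself had −0.17 ± 0.32.

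Of the 37 lists, clock genes and outputs had the most members at an unadjusted p under 0.05. The liver clock is a loop in which Arntl and Npas2 or Clock activate Per and Cry genes, which then repress them, and Dbp, Tef, Usp2, Noct and Lpin1 are rhythmic outputs. Of 27 measured genes 12 were higher and 3 lower at an unadjusted p under 0.05, against 2.77 and 2.03% of all genes. Of the same 27, 9 lay higher in every oxymetholone library than in every untreated one, against 1.87% of all genes, and none lay lower. None was called. The median difference was 0.97, and 0.64 without oxymetholone replicate 3.

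Among the outputs, Usp2, a ubiquitin protease, had 6.57, 3.82, 50.6, 23.0 and 46.8 CPM with oxymetholone, against 0.888, 1.75 and 2.13 CPM in untreated mutants (4.04 ± 0.96, edgeR adjusted p = 0.299). Dbp, a transcription factor, had 20, 17.0, 75.4, 17.3 and 25 CPM, against 0.604, 2.79 and 13.2 CPM (2.48 ± 1.15). Noct, which encodes the phosphatase nocturnin, had 9.41, 9.05, 27.1, 16.7 and 42.3 CPM, against 1.6, 1.31 and 5.28 CPM (2.92 ± 0.87). Untreated replicate 4 was the highest of its group for all 3.

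Among genes of the repressors, Cry1 had a difference of −0.22 ± 0.57 and Cry2 of 1.02 ± 0.44. Per2, which with Cry proteins represses the activators, had 5.73, 4.67, 11.1, 13.1 and 9.62 CPM with oxymetholone, against 3.23, 2.84 and 4.58 CPM in untreated mutants (1.31 ± 0.44). Bhlhe40, a repressor of the same promoters, had 41.9, 34.1, 49.4, 69.7 and 67.8 CPM, against 17.6, 21.9 and 30 CPM (1.18 ± 0.31, edgeR adjusted p = 0.401). Ciart, a further repressor, had 3.96, 0.816, 8.19, 4.46 and 4.28 CPM, against 0.178, 0.492 and 0.624 CPM (3.33 ± 0.91). Its promoter window is shown because it holds 3 copies of CACGTG, the E-box that the activators bind, in capitals and on both strands.
Ciart, chr3:95882179-95882478 (minus strand): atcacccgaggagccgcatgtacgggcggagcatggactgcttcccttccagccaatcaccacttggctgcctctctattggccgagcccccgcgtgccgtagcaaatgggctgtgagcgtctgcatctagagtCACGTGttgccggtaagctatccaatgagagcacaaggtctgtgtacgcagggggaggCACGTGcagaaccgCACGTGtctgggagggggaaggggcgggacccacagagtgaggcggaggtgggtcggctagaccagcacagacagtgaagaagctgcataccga

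An E-box of that kind was found in 7.15% of the 32851 windows. There was 1 copy in each of Per1 window 1, Fkbp5 and the Wif1 window printed above. None was in the Usp2 window or in Per1 window 2. Genes of the activators had negative differences. Arntl, also named Bmal1, had 2.88, 2.11, 2.19, 4.06 and 2.06 CPM with oxymetholone, against 13.7, 10.1 and 3.45 CPM in untreated mutants (−1.77 ± 0.61), and untreated replicate 4 lay within the treated range. Npas2 had 0.681, 0.742, 0.286, 0.203 and 0.19 CPM, against 4.23, 1.2 and 0.403 CPM (−2.21 ± 0.92). Clock had −0.09 ± 0.29. The sources used here do not give the hour at which each liver was taken, and its part in these values was not tested.

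**Figure D4:**
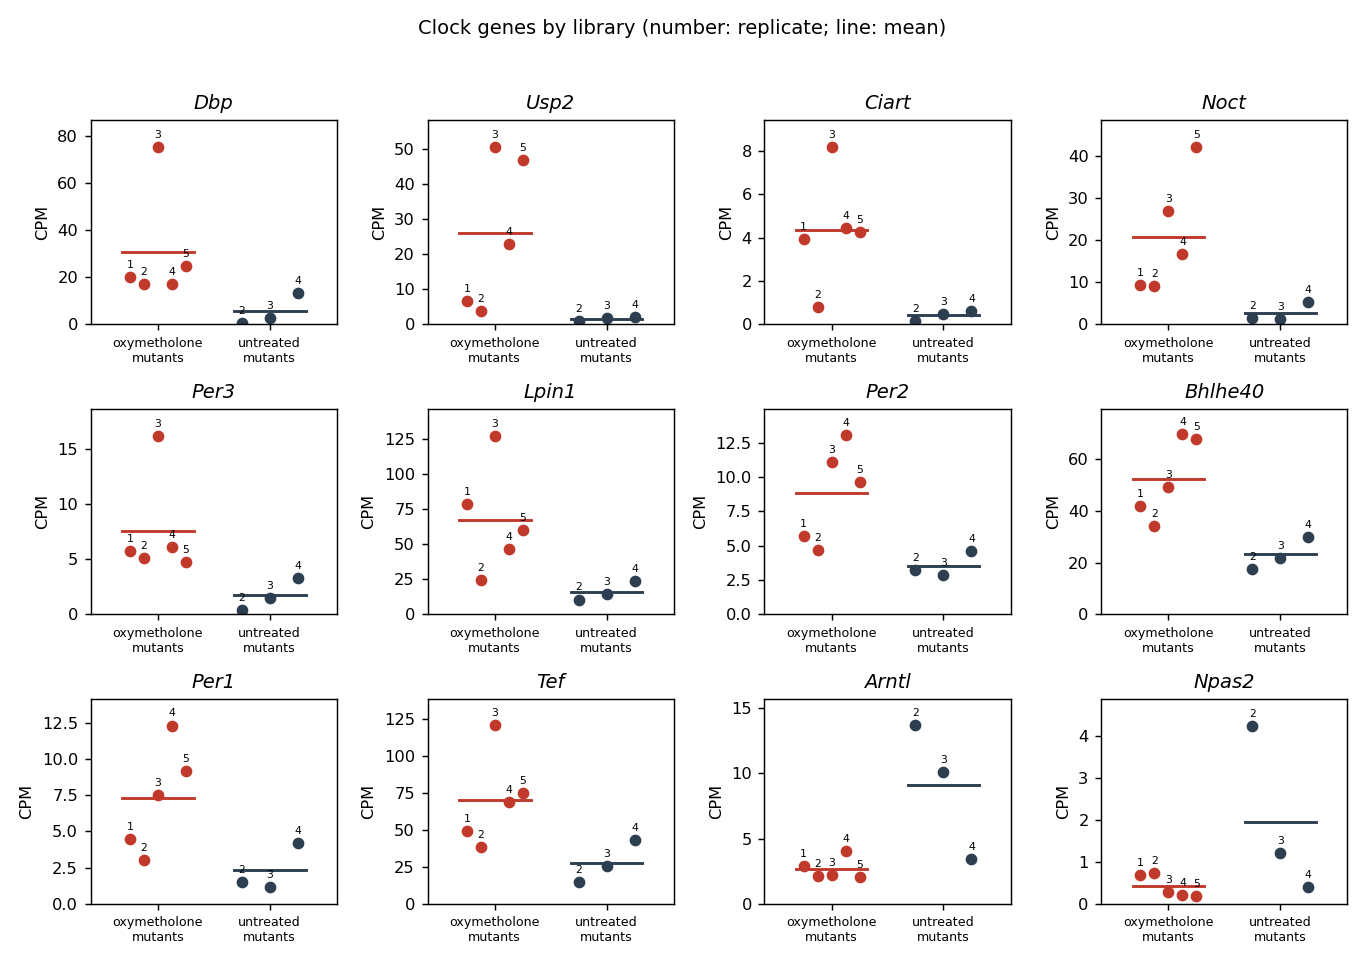
CPM of 12 clock genes (y axes from 0), with oxymetholone mutants left of untreated mutants. Points are libraries labelled by replicate number and lines are means. Dbp, Usp2, Ciart, Noct, Per3, Lpin1, Per2 and Bhlhe40 are higher in each treated library, while Arntl and Npas2 are low in all 5 treated libraries and in untreated replicate 4.

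Targets of NRF2, the transcription factor of the response to electrophiles, were highest in oxymetholone replicates 5 and 2. Of 32 genes 26 had a positive difference (median 0.60, none called), and the median was 0.25 without oxymetholone replicate 5. The median log2 level of the list relative to untreated mutants was 1.13 in replicate 5 and 0.50 in replicate 2, against −0.04, 0.22 and 0.09 in replicates 1, 3 and 4. Gsta1, a glutathione transferase, had 2.32, 37.9, 0.952, 0.852 and 128 CPM with oxymetholone, against 6.04, 0.328 and 0.844 CPM in untreated mutants. Cbr3, a carbonyl reductase, had 1.48, 18.5, 0.667, 2.23 and 75.7 CPM, against 2.02, 1.37 and 2.68 CPM. Srxn1, which reduces oxidised peroxiredoxins, had 47.1, 121, 42.5, 58.8 and 387 CPM, against 67.3, 37.6 and 46.5 CPM. In all 3 genes replicates 5 and 2 were highest and at least 1 other treated library was within or below the untreated range. Gstm3 was higher in every treated library, with 115, 345, 110, 90.5 and 1180 CPM, against 47.7, 54.1 and 36.2 CPM (3.0 ± 1.0, edgeR adjusted p = 0.784).

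Cholesterol synthesis genes were lowest in the same libraries. Of 26 genes that make cholesterol or answer to SREBP2, 23 had a negative difference (median −0.41) and none was called. The median was −0.25 without oxymetholone replicate 2 and −0.62 without replicate 3. The median log2 level of the list relative to untreated mutants was −0.14, −1.29, −0.01, −0.04 and −1.36 in oxymetholone replicates 1 to 5. Untreated libraries had −0.23 to 0.29, so only replicates 2 and 5 lay below that range. Leaving out either of them keeps the other in the median. Cyp51, lanosterol demethylase, had 458, 229, 279, 391 and 116 CPM with oxymetholone, against 413, 552 and 645 CPM in untreated mutants (−0.86 ± 0.35). Hmgcs1, which makes the precursor of mevalonate, had 437, 144, 377, 472 and 116 CPM, against 523, 544 and 682 CPM (−0.92 ± 0.52). Replicates 5 and 2 were the lowest for both genes.

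Interferon-induced genes had a positive difference in 36 of 40 (median 0.69, and 0.49 without oxymetholone replicate 5), with 9 at an unadjusted p under 0.05, all higher, against 2.77% of all genes, and 0 called. The median log2 level of the list relative to untreated mutants was 0.14, 0.59, 0.01, 0.8 and 1.49 in oxymetholone replicates 1 to 5. Untreated libraries had −0.2 to 0.36, so replicates 1 and 3 lay within that range. The 1 gene without overlap, against 1.87% of all genes, is a share near the background. It was Usp18, which removes ISG15 from proteins and damps interferon signals, with 6.89, 19.6, 7.81, 25.1 and 30.4 CPM, against 4.69, 2.90 and 2.38 CPM (2.43 ± 0.73, edgeR adjusted p = 0.616). Oasl1, a sensor of the same response, had 3.92, 11.6, 7.52, 13.6 and 129 CPM, against 6.68, 2.30 and 1.76 CPM (3.20 ± 1.12, edgeR adjusted p = 0.877). Oxymetholone replicate 5 was highest for both.

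Cell division genes had a positive difference in 43 of 44 (median 1.04), with 4 higher at an unadjusted p under 0.05, against 2.77% of all genes, and 0 called. Of the 44, 5 lay higher without overlap, against 1.87% of all genes. The median log2 level of the list relative to untreated mutants was 0.67, 1.41, −0.03, 1.03 and 1.37 in oxymetholone replicates 1 to 5, against 0.49, −0.20 and −0.10 in untreated replicates 2 to 4, so replicate 3 lay within the untreated range. Ube2c, a ubiquitin carrier of mitotic exit, had 2.08, 5.15, 2.24, 4.83 and 5.72 CPM, against 1.49, 0.656 and 1.03 CPM (1.91 ± 0.74). Cdk1, the mitotic kinase, had 3.40, 7.53, 1.0, 4.42 and 4.98 CPM, against 1.24, 1.26 and 1.28 CPM (1.76 ± 0.80).

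Markers of other cell types are given beside the last 2 lists. Lymphocyte markers had a positive difference in 18 of 20 (median 0.65, and 0.14 without oxymetholone replicate 2), with sums of 54.3 to 130 CPM with oxymetholone and 54.4 to 117 CPM in untreated mutants. Their median log2 level relative to untreated mutants was −0.37, 1.42, −0.67, −0.27 and 0.93 in oxymetholone replicates 1 to 5. Untreated libraries had −0.25 to 0.2, so only replicates 2 and 5 were higher, and replicates 1, 3 and 4 lay below that range. Cd8a, Cd8b1, Klrb1c, Ncr1, Prf1, Mzb1 and Xcl1 were not analysed here. Stellate and fibroblast markers were positive in 24 of 27 (median 0.45, and 0.24 without replicate 5), with sums of 157 to 739 CPM and 338 to 477 CPM. Macrophage and Kupffer cell markers were positive in 15 of 22 (median 0.35, and 0.16 without replicate 5), with sums of 564 to 1360 CPM and 682 to 1030 CPM. No listed marker of these types was at 0 in all 8 libraries. Their part in the interferon and cell division values was not tested.

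The median of acute-phase genes changed sign with the library left out. Of 32 genes 7 had a positive difference (median −0.34), and the median was 0.27 without untreated replicate 2 and −1.37 without oxymetholone replicate 4. The fibrinogen gene Fgg had 3410, 1850, 3260, 14100 and 1720 CPM with oxymetholone, against 13900, 6320 and 4400 CPM in untreated mutants, so these 2 libraries were the highest of their groups. Bile duct markers summed to 62.1 to 450 CPM with oxymetholone and 74.3 to 1500 CPM in untreated mutants, with 7 of 16 positive.

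Genes of the integrated stress response, induced through ATF4, had a positive difference in 22 of 25 (median 0.48, none called). Of these 25, 4 were higher at an unadjusted p under 0.05, against 2.77% of all genes, and 3 lay higher without overlap, against 1.87%. Ddit3, the transcription factor CHOP, had 4.25, 8.19, 3.95, 7.38 and 6.85 CPM with oxymetholone, against 3.73, 2.52 and 3.63 CPM in untreated mutants (0.89 ± 0.29, edgeR adjusted p = 0.714). The treated libraries lay above the untreated ones, by little in replicates 1 and 3. In the Fanconi anaemia pathway 20 of 30 genes had a positive difference (median 0.10, none called, and 0.03 without untreated replicate 3). Hepatic genes tied to marrow and iron, Thpo (0.11 ± 0.42), which encodes thrombopoietin, and Hamp (−0.30 ± 0.66), which encodes hepcidin, were not called. Cyp7a1, the rate-limiting enzyme of bile acid synthesis, had 88.2, 125, 253, 519 and 283 CPM with oxymetholone, against 49.1, 192 and 101 CPM in untreated mutants (1.16 ± 0.77). Of the other metabolic lists, fatty acid synthesis had 22 of 28 positive (median 0.25), PPAR-alpha targets 25 of 30 (0.24) and gluconeogenesis 22 of 27 (0.24), with 0 called in each. Without untreated replicate 4 the medians of fatty acid synthesis and gluconeogenesis were 0.53 and 0.56, and without oxymetholone replicate 5 that of PPAR-alpha targets was 0.08. Chaperones of endoplasmic reticulum stress had 5 of 22 positive (median −0.28, and 0.10 without untreated replicate 2). Erythroid markers had 5 of 12 positive, with sums of 652 to 2690 CPM with oxymetholone and 633 to 4110 CPM in untreated mutants. Markers of liver tumours and fetal liver had 9 of 17 positive, with sums of 194 to 3780 CPM and 341 to 5130 CPM.

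**Figure D5:**
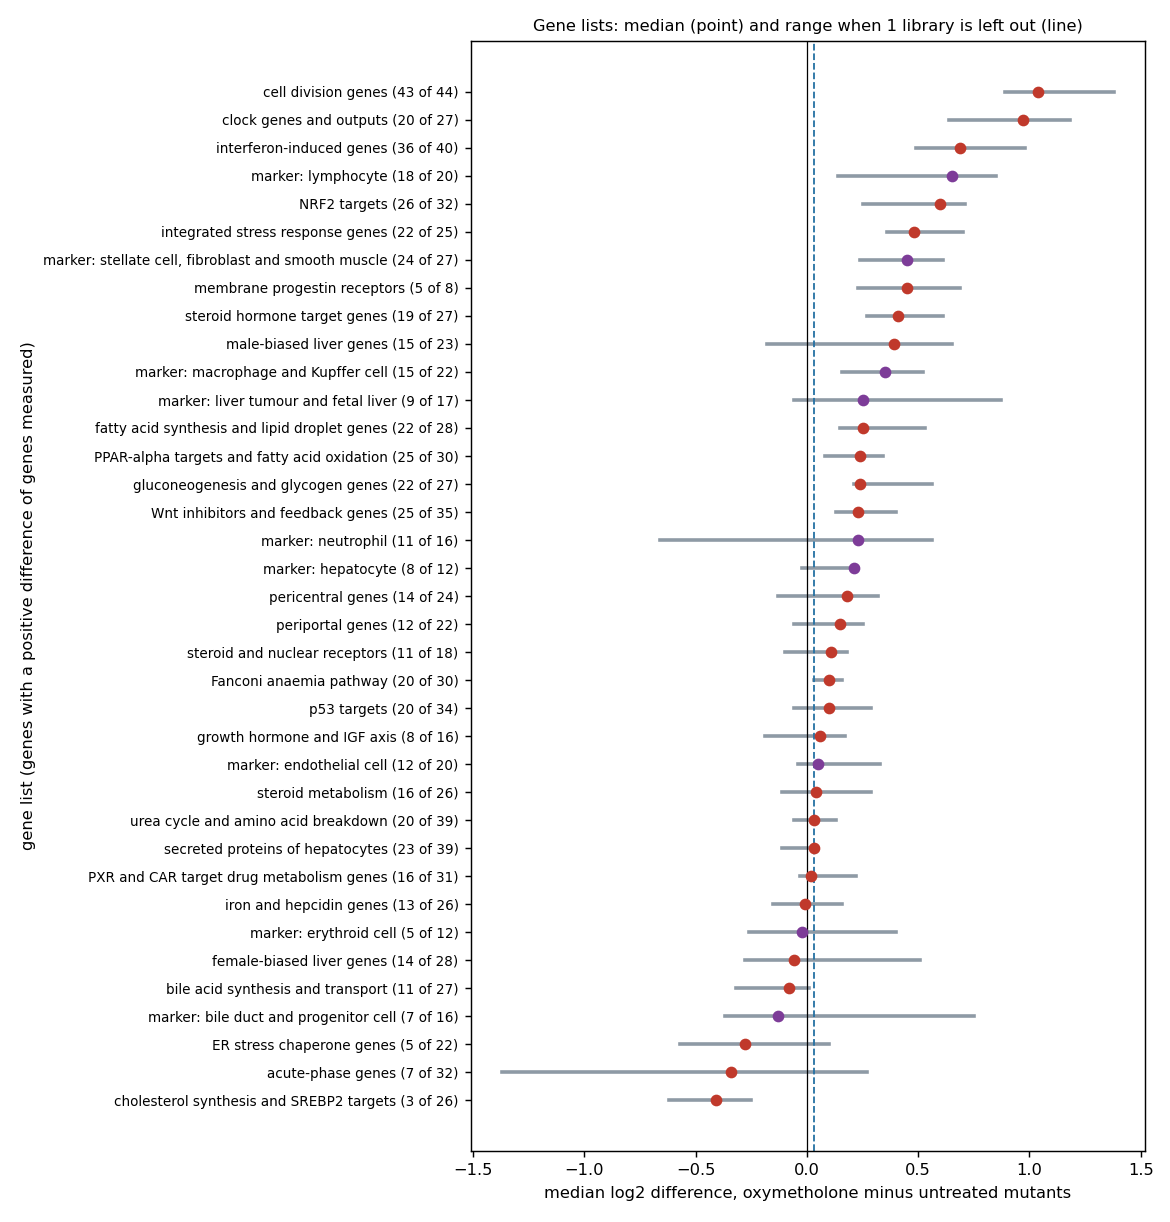
Median log2 difference of oxymetholone minus untreated mutants for 37 gene lists (red points, and purple points for lists of cell type markers), with the range when any 1 of the 8 libraries is left out (lines) and the median of all genes (dashed line, 0.03). Labels give genes with a positive difference of those measured. Cell division and clock genes have the highest medians and cholesterol synthesis the lowest.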

How the data were processed

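Liver RNA of 18 libraries was measured by RNA-seq. RNA was purified on columns and libraries were made and sequenced by a commercial provider, per the labels' protocols, and the submitters' processing notes name build GRCm39. For the aligner, counter, strand setting and annotation, the sources used here say nothing. The authors deposited raw counts per gene for 16115 genes, low genes already left out, with CPM-like signal values and log2 values of their own that were not used in tests. The deposited table also gives the authors' log2 differences and adjusted p-values for 7 comparisons, by a test that is not given.

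From the counts, CPM was computed with TMM scaling and tested in edgeR 4.0.16 (R 4.3.3) by the robust quasi-likelihood test, fitting a mean for each group to all 18 libraries together, at a Benjamini-Hochberg threshold of 0.05. The expression filter of edgeR removed 0 genes, and 13 rows have no gene symbol. Alternatives were DESeq2 1.42.0, limma-voom 3.58.1 with quality weights, 3 surrogate variables from sva 3.50.0, other filters and scalings, and leaving out libraries. On simulated counts with 50 genes at each fold, edgeR recovered 26% of 2-fold, 80% of 4-fold, 90% of 8-fold and 96% of 16-fold changes in oxymetholone against untreated mutants, with 3 false calls among 149. No 2 libraries of the oxymetholone group, and no 2 of the untreated mutant group, agreed within sampling noise. Counting intervals cover counting error only.

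Genes were named as called by edgeR, as the 10 largest per direction of the authors' calls with mean CPM of at least 1 and no overlap, as the 3 smallest p-values of each of 37 lists (9 of them markers), as neighbours of called genes, as the 5 other smallest p-values with mean CPM of at least 1, and as a short set with Nr3c1, Igf1, Hamp, Thpo and Cyp7a1, of which 1 result is not reported here. Other list members were named after their values were seen. The comparison and the lists were chosen with earlier results of these data known. Promoter sequences are RefSeq's on GRCm38.p6, and 12 of 16 genes looked up matched.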

Additional observations from a re-analysis of the deposited data

Results flagged for a closer look

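Within the 5 oxymetholone libraries, 141 named genes and 37 lists were tested on the log2 CPM scale, with the mitochondrial share of counts, for 1 library far from the other 4, which chance gives in about 1 of 20 groups. That found 5 genes, 0 lists and the mitochondrial share, no more than that rate would give, so nothing is read from their number. Serpina1e, one of a family of near-identical antitrypsin genes, had 14500 CPM in oxymetholone replicate 3, against 39.9 to 67.0 CPM in the other 4 and 18.5 to 53.6 CPM in untreated mutants. Its relatives Serpina1a, Serpina1b, Serpina1c and Serpina1d were also highest in that library, with 3470, 6860, 2390 and 2990 CPM. In the other 4 they reached at most 1350, 2930, 1260 and 1180 CPM. Zfhx3, a transcription factor gene, had 19.4 CPM in oxymetholone replicate 3, against 2.48 to 4.28 CPM in the other 4. The mitochondrial share of counts was 8.19% there. Mcmdc2 had 0.0371 CPM in oxymetholone replicate 2, which is 1 count, and 0 in the others. Wnt9b had 0.519 CPM in replicate 2, the lowest of its group. Cyp2c39 had 63.4 CPM in replicate 5, the highest of its group.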

How the results depend on the processing

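The count of 7 called genes was 77 with DESeq2 (57 higher, 20 lower), 19 with limma-voom (15 higher, 4 lower), 55 with 3 surrogate variables (32 higher, 23 lower) and 15 without metformin replicate 3 and combination replicate 3 together (8 higher, 7 lower), and each of these held all 7. It was 10 with only the 8 libraries compared (5 higher, 5 lower), 6 of them shared. Leaving out 1 library gave 4 to 11 calls. Paqr8, Wif1, Tmem62 and Lncbate1 were called in all 22 alternatives, Ubr1 in 20, Rab38 in 10 and Mcmdc2 in 14 of 21. In the combination against metformin, DESeq2 called 5 of the 7 genes and limma-voom 3, against 0 by edgeR and 0 to 1 when 1 library was left out, the 1 without combination replicate 3. For the interaction DESeq2 called 1, Wif1, against 0 by edgeR and 0 to 0 when 1 library was left out. The cause of these differences between tools was not tested. Over named genes and alternatives, 2990 values kept direction and side of the threshold, 58 passed it with the same direction and 21 no longer passed it. The remaining 24 changed direction, and none of these belonged to the 7 called genes. No paired analysis was possible because replicate numbers follow the order of deposit and pair no samples. With 3 untreated libraries, 2-fold changes were mostly not detectable.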
